A study of Homo sapiens with 16 samples.

Results

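The human genes for the U4, U5, U11 and U4atac small nuclear RNAs (snRNAs) are described here through the ChIP-Seq peaks that lie at them in HEK293T cells, a human embryonic kidney cell line. The 9 genes, chosen by name, were RNU4-1, RNU4-2, RNU5A-1, RNU5B-1, RNU5D-1, RNU5E-1, RNU5F-1, RNU11 and RNU4ATAC, of 64449 genes annotated on the assembled chromosomes. A peak was counted for a gene when any base of it lay within 1000 bp of the gene, and a peak in reach of a pair of these genes was given to the nearer one. By this rule 8 of the 9 genes had a peak in WT, 8 in POLK-/- and 9 in DDX23-/-. The peak lists are the only data used, so nothing is said of the level of the RNAs.

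The spliceosome removes introns with the help of snRNAs bound to proteins. U4 travels base-paired to U6 in a particle that also holds U5, and its release frees U6 for the catalytic center. U5 carries a conserved loop that holds the exon ends. U11 recognizes the start of the rare minor introns, at which U4atac takes the place of U4. DDX23, also called Prp28, is an RNA helicase of the U5 particle that helps U6 replace U1 at the start of the intron. These snRNA genes are short, have no introns, and are transcribed by RNA polymerase II from a promoter with a distal element, often an octamer bound by POU2F1, and a proximal element bound by the SNAPc complex.

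The study examined where DNA polymerase kappa (Pol κ), a translesion DNA polymerase, sits in the genome. There is 1 peak list each for WT cells, POLK-/- cells (in which Pol κ is knocked out) and DDX23-/- cells, all of them untreated HEK293T. The labels name Polk as the antibody in each genotype and give no tag for these cells, whereas the protocol describes beads against the FLAG epitope, so the pulled-down protein is uncertain. The titles of these libraries begin with R_, a prefix that no source used here explains, and the paper does not describe them. The labels do not say whether the knockout cells are single clones. As a check of the labels, a peak lay within 1000 bp of the start of POLK in the WT list (fold 6.36) and the DDX23-/- list (fold 6.71) and none in the POLK-/- list, whereas at the start of DDX23 there was a peak in the DDX23-/- list only (fold 5.69, 649 bp past the start). A peak near a gene does not report whether the gene is intact.

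The lists held 1468, 2451 and 5945 peaks in the order WT, POLK-/- and DDX23-/-, the order kept below. No gene had a replicate, so differences between lists have no replicate check, and no test between genotypes was made. The intervals are 95% intervals that cover counting error only. The pulldown libraries were not equally deep, at 2.37 and 3.96 times the WT depth in the knockout lists as recovered from the peaks, and the weakest peak of a list rested on 6, 10 and 14 fragments.

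Promoter sequences are shown first because most summits lay close to the gene start. Coordinates are those of GRCh37, the same build as hg19, and every sequence was read from that genome along the strand of the gene. The stretches around the octamer ATTTGCAT (in RNU4ATAC on the opposite strand, ATGCAAAT) come from the 3 genes with the smallest p, then from the 2 genes without a peak in one of the lists, and lastly from RNU4-1, which was added after its values were seen because its gene is nearly the same as RNU4-2. Capitals mark the octamer, or the word that differs from it by 1 base in RNU5D-1 and RNU4-1, and, in RNU5D-1, also the word CCCANAATG.
RNU4-2, chr12:120729908-120729939, minus strand: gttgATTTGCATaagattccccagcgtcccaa
RNU11, chr1:28974889-28974920, plus strand: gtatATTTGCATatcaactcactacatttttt
RNU4ATAC, chr2:122288224-122288255, plus strand: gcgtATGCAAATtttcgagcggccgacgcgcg
RNU5A-1, chr15:65588182-65588213, plus strand: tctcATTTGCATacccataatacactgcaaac
RNU5D-1, chr1:45197029-45197060, minus strand: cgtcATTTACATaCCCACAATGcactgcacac
RNU4-1, chr12:120731240-120731271, minus strand: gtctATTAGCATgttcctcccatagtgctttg

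An intact octamer lay within 250 bases before the start of 7 of the 9 genes, on either strand, and its first base was 203 to 229 bases before the start. The exceptions were RNU5D-1 and RNU4-1, whose words differ from the octamer by 1 base. The promoters of all 20163 protein-coding genes were cut to the same length. Of these, 13.2% held a word at most 1 base from the octamer, and 1.56% held the octamer. It stood before 3 of 23 other snRNA genes of the Sm class, which are also made by RNA polymerase II (U1, U2 and U7 among them), and before 5 of 8 genes of RNA polymerase III with the type 3 promoter, such as those of U6 and 7SK. The word CCCANAATG, chosen after the promoters were seen, lay directly behind the octamer region in RNU5B-1, RNU5D-1, RNU5E-1 and RNU5F-1, against 1.11% of protein-coding promoters.

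The proximal stretch, from 70 to 36 bases before the start, is shown for the same 6 genes, with the word ACCNT in capitals.
RNU4-2, chr12:120729742-120729776, minus strand: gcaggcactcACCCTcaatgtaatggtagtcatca
RNU11, chr1:28975042-28975076, plus strand: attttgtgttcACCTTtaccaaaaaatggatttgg
RNU4ATAC, chr2:122288387-122288421, plus strand: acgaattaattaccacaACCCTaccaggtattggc
RNU5A-1, chr15:65588319-65588353, plus strand: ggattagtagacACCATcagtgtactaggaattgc
RNU5D-1, chr1:45196878-45196912, minus strand: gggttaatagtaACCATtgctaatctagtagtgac
RNU4-1, chr12:120731076-120731110, minus strand: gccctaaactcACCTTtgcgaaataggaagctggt

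ACCNT was found on the strand of the gene, starting 70 to 50 bases before it, in all 9 genes, and in 4.93% of protein-coding promoters and 20 of 23 other Sm-class genes. It also stood before 5 of the 8 type 3 genes and 9.08% of all other genes annotated as snRNA. This short word was chosen after the promoters were seen. The longer planned word (ACC, any 5 bases, T, any 2 bases, AA, any base and G, starting 80 to 35 bases before the gene) was found in RNU4-2 alone among the 9 and in 15 of the 23 other Sm-class genes. Of protein-coding promoters 0.164% held it. A TATA word (TATAAA or TTATA, starting 40 to 15 bases before the gene) was found in 0 of the 9 genes and in 5 of the 8 type 3 genes. It was rare elsewhere too, in 4.25% of protein-coding promoters and 2 of the 23 other Sm-class genes. The GC box GGGCGG, on either strand, was found before 1 of the 9 genes, RNU4ATAC, against 48.7% of protein-coding promoters. Behind the gene, the word AAANNNAGA, which resembles the 3′ box that directs the ends of snRNAs, began 16 bases past RNU5B-1, RNU5D-1, RNU5E-1 and RNU5F-1, and was not found within 60 bases of the other 5 genes. How often this short word lies behind other genes was not counted. These matches are descriptions of sequence, and binding of any factor to them was not measured here.

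The snRNA genes had peaks far more often than most gene groups. For RNA genes the distance was taken from any part of the gene, and for protein-coding genes from the start only. In the WT list 8 of 9 had a peak, whereas 5.61% of protein-coding genes had one within 1000 bp. So had 0.944% of the 1906 other genes annotated as snRNA, most of which are copies of the major ones. In the POLK-/- list it was 8 of 9 against 10.1% and 1.05%, and in the DDX23-/- list 9 of 9 against 24.9% and 1.31%. Of the 136 other annotated genes of the U4, U5, U11 and U4atac families, 2, 1 and 2 had a peak (1.47%, 0.735% and 1.47%), namely RNU5E-6P in each list and RNU5A-8P in the WT and DDX23-/- lists. The genes of RNA polymerase III with a type 3 promoter stood level with the 9 genes, with a peak at 8 of 8 in each list, although RNU6-7 and RNU6-8 share theirs. RNU6-2, the one with the smallest p in the WT list, had folds of 37.7, 49.1 and 73.4. Of the other Sm-class genes, which include 3 U4 and U5 copies, 5, 7 and 6 of 23 had a peak. RNU2-1 and RNU12 were listed but did not match by symbol, so they are not among the 23. The symbol RNU2-2 did not match either, but that gene is among the 23 under its other listed symbol, RNU2-2P. How much of the sequence of these 23 genes occurs once in the genome was not measured. RNU1-1, RNU2-2P, RNVU1-6, RNVU1-14 and RNVU1-18 had one in each list.

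**Figure D1:**
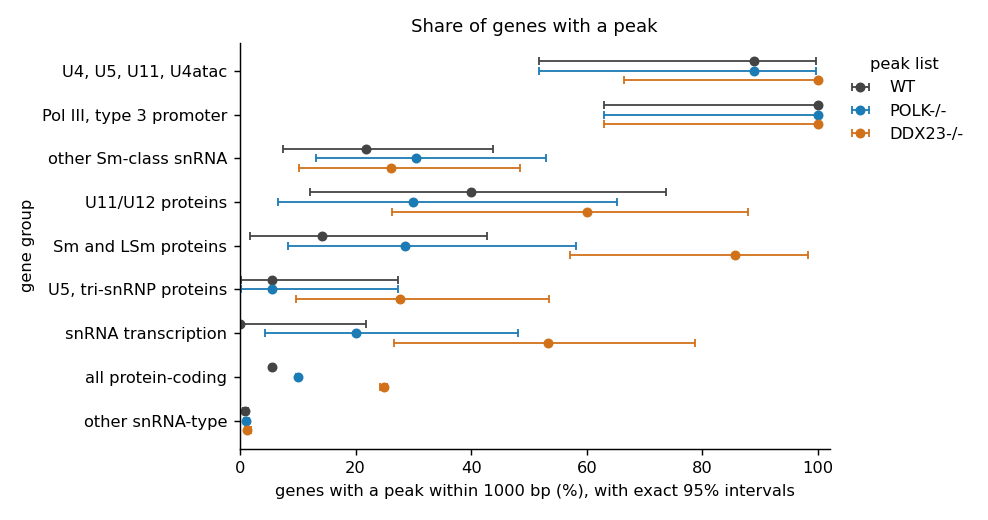
Share of genes with a peak within 1000 bp (x axis, percent) for 9 gene groups (y axis) in the WT, POLK-/- and DDX23-/- lists, with exact binomial intervals as bars. The 9 snRNA genes and the 8 type 3 genes lie at or near 100% in each list, whereas protein-coding genes lie at 5.61%, 10.1% and 24.9%.

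The groups of genes for the proteins of the same particles and for snRNA transcription had a peak at 0% to 40% of their members in the WT list and 5.56% to 30% in the POLK-/- list, whereas in the DDX23-/- list 12 of 14 Sm and LSm genes had one, beside 9 of 9 snRNA genes and 24.9% of protein-coding starts. Among 18 proteins of the U5 and U4/U6.U5 particles, the start of SNRNP40 had a peak in each list (folds 5.18, 13.2 and 16.7), and those of DDX23, PRPF4, PRPF6 and RBM42 had one in the DDX23-/- list, which makes 1, 1 and 5 of 18. Of 10 proteins of the U11/U12 particle 4, 3 and 6 had a peak, of 14 Sm and LSm proteins 2, 4 and 12, and of 15 factors of snRNA gene transcription 0, 3 and 8. With 1468 peaks taken from each list, the DDX23-/- counts of the 4 groups, in this order, became 1, 1, 2 and 2, and 5.73% of protein-coding starts had a peak. In the WT list SNRNP25, SNRNP35, SNRNP48 and ZRSR2 made up the U11/U12 count, and SNRPB and SNRPD2 the Sm count. ELL, INTS11 and ZNF143 were the factors of transcription with a peak in the POLK-/- list. The median fold of these protein genes stayed between 5.18 and 13.2 in each list and group with a peak.

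The peaks of the snRNA genes were stronger and wider than most. Fold is the deposited ratio at the summit, with 1 added to the scaled fragments and to the local background. The fragments were multiplied by the scale of their list (1, 0.736 and 0.660), and the background is on that scale. The median fold of the 9 genes' peaks was 16.6, 13.6 and 22.8, whereas peaks with their summit within 1000 bp of a protein-coding start had 7.23, 6.94 and 7.32. The median width was 588.5, 625.5 and 792 bp against 310, 335 and 342 bp. Ranked by p, 6 of 8, 4 of 8 and 7 of 9 of these peaks stood in the top 25% of their list. The type 3 genes had median folds of 30.5, 37.9 and 36.9, and the other Sm-class genes with a peak 11.8, 23.3 and 19.9. The median ranks of the type 3 genes were 158, 181 and 194. Their peaks were 387 to 619, 404 to 787 and 436 to 1019 bp wide. Strong and wide peaks were thus not particular to the 9 genes.

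The summits lay at the gene start. The median distance between summit and start was 23.5, 24 and 16 bp, and 8 of 8, 7 of 8 and 9 of 9 summits were within 100 bp of it. At protein-coding starts the median was 91, 93 and 96 bp, and 53.8%, 51.4% and 51.5% of summits were that close. Of the peaks that covered part of their gene, 7 of 8, 5 of 7 and 9 of 9 reached farther in the direction of transcription than against it. The median reach was 370.5, 565 and 463 bp in that direction and 220.5, 202 and 282 bp against it. The lists hold largely the same genes, and the reach of other peaks was not measured. The exception to the position was RNU5B-1 in the POLK-/- list.

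**Figure D2:**
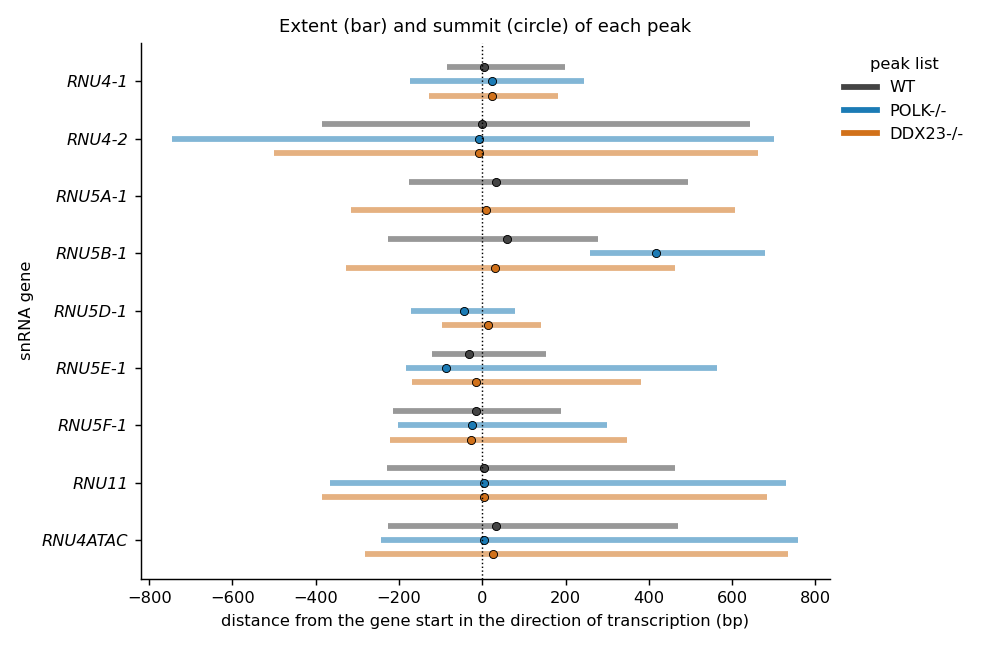
Extent (bar) and summit (circle) of the peak of each gene in each list, as the distance in bp from the gene start in the direction of transcription (x axis). In 24 of the 25 peaks the summit lies within 100 bp of the start, and the POLK-/- peak at RNU5B-1 lies past the gene with its summit at 418 bp.

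RNU4-2 and RNU4-1 both encode U4. They lie on the minus strand of chromosome 12 in no other gene, RNU4-2 at chr12:120729566-120729706 and RNU4-1 at chr12:120730900-120731040, and their RNAs differ at 4 of 141 positions (T37C, A88G, A99C and T113C, counted from the first base of the gene, with the base of RNU4-2 first and that of RNU4-1 last). The differing bases are in capitals.
RNU4-2, chr12:120729566-120729706, minus strand: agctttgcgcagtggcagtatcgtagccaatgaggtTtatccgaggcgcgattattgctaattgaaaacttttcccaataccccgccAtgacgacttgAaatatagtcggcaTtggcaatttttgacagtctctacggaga
RNU4-1, chr12:120730900-120731040, minus strand: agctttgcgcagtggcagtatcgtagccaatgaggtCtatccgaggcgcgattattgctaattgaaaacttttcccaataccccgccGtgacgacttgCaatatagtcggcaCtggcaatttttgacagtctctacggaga

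RNU4-2 had one of the strongest peaks of each list, with folds of 54.6, 37.3 and 76.7 at ranks 32, 82 and 57 by p. Its peak rested on 153, 303 and 320 fragments and was 1028, 1446 and 1165 bp wide. RNU4-1 had folds of 8.28, 4.76 and 8.03 at ranks 696, 1733 and 2544, on 13, 31 and 35 fragments, and its peak was 284, 419 and 311 bp wide. The RNU4-2 peak thus exceeded the RNU4-1 peak in every list, and the intervals of enrichment, scaled fragments over local background, did not overlap. Enrichment was 84.1 (71.3 to 98.6), 44.6 (39.7 to 49.9) and 120 (107 to 134) at RNU4-2 and 18.8 (10.0 to 32.2), 5.71 (3.88 to 8.10) and 11.5 (8.04 to 16.1) at RNU4-1. The 250 bases before the genes were 54.4% identical, in the range of pairs from different families (45.2% to 56%). Of windows of 50 bases, 87.0% of those in RNU4-1 and 98.9% of those in RNU4-2 occur once in the genome, and all windows in the 300 bases on either side do. The RNU4-2 peak ended 809, 449 and 693 bp from RNU4-1, so it also lay within reach of that gene.

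The U5 RNA comes from 5 genes, which were 77.8% to 94.0% identical over their length, and the 250 bases before them 51.6% to 66.8%. RNU5A-1 and RNU5B-1, the most alike pair, lie on the plus strand of chromosome 15 at chr15:65588389-65588504 and chr15:65597015-65597130, on either side of the start of PARP16, a gene for an ADP-ribosyltransferase. RNU5A-1 is in an intron of PARP16, antisense to it.

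RNU5A-1 had a fold of 14.7 at rank 268 in the WT list and 27.1 at rank 338 in the DDX23-/- list, and no peak in the POLK-/- list, where the nearest peak was 4267 bp away. Its summits rested on 34 and 121 fragments. Scaled by relative depth, these correspond to 80.5 and 72.4 fragments in the POLK-/- library, in which the weakest peak rested on 10. The start of PARP16 had a peak in the POLK-/- list (fold 9.0, rank 615) and in neither other list.

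RNU5B-1 had folds of 13.3, 8.34 and 13.0 at ranks 314, 1035 and 632. In the WT and DDX23-/- lists the peak covered the gene with its summit 60 and 30 bp past the start. In the POLK-/- list the peak began 143 bp beyond the gene and overlapped the WT peak by 22 bp, so the POLK-/- list held no peak over either U5 gene of chromosome 15. Windows of 50 bases that occur once make up 86.6% of both genes and all of their 300-base flanks.

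RNU5D-1 and RNU5F-1 lie on the minus strand of chromosome 1, at chr1:45196727-45196842 and at chr1:45187458-45187574 within an intron of ARMH1. RNU5D-1 had the weakest peaks of the 9 genes in the DDX23-/- list, with a fold of 6.38 at rank 3709 there, 5.73 at rank 1693 in the POLK-/- list, and no peak in the WT list. Its 22 and 29 fragments correspond to 9.29 and 7.32 at the WT depth, where the weakest peak rested on 6, so a peak of this size would lie near the limit of that list. RNU5F-1 was steady, with folds of 18.4, 18.4 and 22.8 at ranks 247, 325 and 446. Its enrichment was 39.1 (26.9 to 55), 28.8 (22.3 to 36.6) and 35.2 (28.4 to 43.0), and these intervals overlap.

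RNU5E-1, at chr1:11968209-11968328 on the plus strand and in an exon of an unnamed long noncoding RNA, had folds of 5.88, 8.73 and 13.7 at ranks 1152, 865 and 953. Its enrichment was 9.90 (5.11 to 17.3), 13.4 (9.05 to 19.2) and 19.9 (15.2 to 25.5). These intervals all overlap, those of the WT and DDX23-/- lists included. Of its windows 77.5% occur once in the genome, against 71.6% in RNU5D-1 and 100% in RNU5F-1, and all windows of the flanks of the 3 genes do.

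RNU11 and RNU4ATAC serve the minor spliceosome. RNU11 is annotated at chr1:28975112-28975242 on the plus strand as a long noncoding RNA without a symbol. It was recognized by its likeness to 4 RNU11 copies (alignment scores 68 to 94, against 15 for the next of 1906 snRNA-type genes) and by its RefSeq neighbors TAF12 and GMEB1. The start of TAF12, a subunit of the TFIID complex, lies 309 bp away, and the peak at RNU11 is also the one within 1000 bp of TAF12. The summit was at 5, 4 and 4 bp past the start of RNU11 and 313 or 314 bp from that of TAF12.

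RNU11 had folds of 26.1, 56.2 and 55 at ranks 83, 71 and 87, on 136, 278 and 332 fragments. Enrichment was 32 (26.9 to 37.9) in the WT list and 77.0 (68.2 to 86.6) and 73.0 (65.4 to 81.3) in the knockout lists, so the WT value lay below both others. The local background of the WT peak was 4.24 scaled fragments, against 2.66 and 3.00, each on the scale of its own list. The lowest common background of the lists was 0.57, 0.92 and 1.28.

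RNU4ATAC, at chr2:122288457-122288583 on the plus strand, lies in an intron of CLASP1 and of CLASP1-AS1. It had folds of 28.4, 20.7 and 36.3 at ranks 164, 235 and 261, on 47, 111 and 143 fragments. Enrichment was 68.0 (50.0 to 90.4), 27.2 (22.4 to 32.8) and 58.0 (48.9 to 68.3), lowest in the POLK-/- list. The local background there was 3.00 scaled fragments, against 0.691 and 1.63 on the scales of the other lists. Each window of 50 bases in RNU11 and RNU4ATAC occurs once in the genome.

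**Figure D3:**
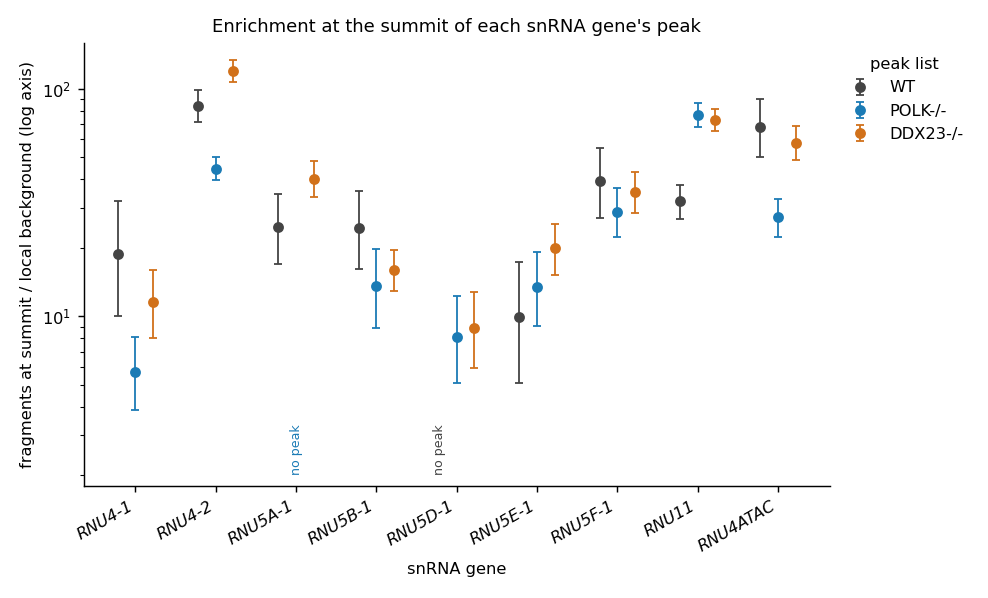
Enrichment at the summit, scaled fragments over local background (y axis, log scale), of each snRNA gene in each list, with exact Poisson intervals as bars. RNU4-2, RNU11, RNU4ATAC and RNU5F-1 are the 4 highest in the WT and POLK-/- lists. Of the genes with a peak in each list, RNU11 and RNU5E-1 are at their lowest in the WT list. RNU4-1, RNU4-2, RNU4ATAC, RNU5B-1 and RNU5F-1 are at their lowest in the POLK-/- list, where the RNU5B-1 peak lies past the gene.

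Between lists, the ratio of enrichment at shared peaks (overlapping by at least 1 bp) was called past a fold of 1.5. POLK-/- over WT was at or above it in 1 of 7 genes, RNU11 (2.40), where 23.5% of the 1129 shared peaks were, and at or below its inverse in RNU4-1 (0.303), RNU4-2 (0.530), RNU5B-1 (0.555) and RNU4ATAC (0.401), where 28.3% of peaks were. With the deposited fold RNU4-2 (0.684) and RNU4ATAC (0.729) were no longer past it, and RNU4-1 was at 0.576. DDX23-/- over WT was above it in RNU5A-1 (1.64), RNU5E-1 (2.01) and RNU11 (2.28) of 8 genes, where 39.4% of 1357 shared peaks were, and below the inverse in RNU4-1 (0.614) and RNU5B-1 (0.655), where 13.3% were. With the deposited fold these last ratios were 0.970 and 0.977, and divided by the median of all shared peaks RNU5A-1 was at 1.32. These comparisons share the WT list. DDX23-/- over POLK-/- was above it in RNU4-1 (2.02), RNU4-2 (2.68) and RNU4ATAC (2.13) of 8 genes, against 45.3% of 2261 shared peaks, and below the inverse in 0, against 10.1%. Divided by that median, RNU4-1 was at 1.46. The median ratio over the genes was 0.555, 1.16 and 1.35, and over all shared peaks 0.961, 1.25 and 1.39. The 0.555 is the ratio of RNU5B-1, whose peaks in these lists overlap by 22 bp. With a reciprocal overlap of 50% the medians were 0.530 (5 genes), 0.898 (7 genes) and 1.48 (7 genes).

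These ratios move with the local background, which the intervals leave out and which was between 0.691 and 5.00 scaled fragments at the 9 genes. Fragments at the summit divided by the relative depth of the library, a measure chosen after the lists were seen, do not use it. For the 7 genes with a peak in each list, the highest over the lowest value of the 3 lists was 1.30 to 2.46 (median 1.48) on this scale and 1.36 to 3.30 (median 2.40) for enrichment. The highest spread on the depth scale was that of RNU5B-1, whose POLK-/- peak lies elsewhere.

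On the depth scale RNU4-2 had 153, 128 and 80.8 fragments and RNU11 136, 117 and 83.8, and both were lowest in the DDX23-/- list. RNU4ATAC had 47, 46.9 and 36.1 and RNU5F-1 33, 27.9 and 23.7. RNU4-1 had 13, 13.1 and 8.84 and RNU5E-1 12, 12.7 and 15.7. The ratio of DDX23-/- to WT was under 1 in 7 of 8 genes, RNU5E-1 being the exception (1.30), whereas 42.2% of all shared peaks were under 1, as were 56.4% of those in the top 25% of the WT list. POLK-/- over WT was under 1 in 5 of 7 genes against 47.2% of all shared peaks and 48.8% of the top 25%, and DDX23-/- over POLK-/- in 6 of 8 against 43.7% and 60.9%. The median ratio was 0.863 for POLK-/- over WT (7 genes) and 0.744 for DDX23-/- over WT (8 genes), beside 1.03 and 1.07 over all shared peaks and 1.01 and 0.949 over the top 25% of the WT list. The type 3 genes had 1.03 and 1.02 (8 genes), and the other Sm-class genes 1.30 and 1.00 (5 genes). At RNU11 the ratios to WT were 0.863 and 0.616 on the depth scale, so its direction depends on the measure.

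**Figure D4:**
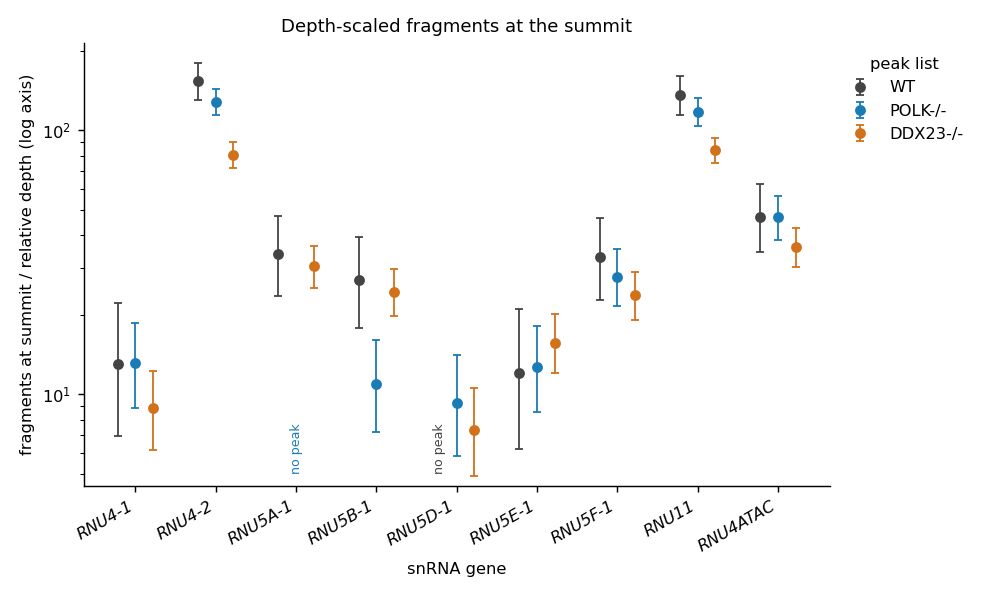
Fragments at the summit divided by the relative depth of the library (y axis, log scale) for each snRNA gene in each list, with exact Poisson intervals as bars. RNU4-2 and RNU11 stand above the other genes in each list, at 80.8 to 153, and RNU4-1, RNU5D-1 and RNU5E-1 stand at 7.32 to 15.7.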

How the data were processed

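ChIP-Seq peak lists of HEK293T cells were analysed, 1 per genotype, grouped by the sample titles. Per the labels' processing notes the authors used Bowtie2, MACS2 and hg19. The versions, threshold, control library and any pooling of libraries are not given in the sources used here. The authors deposited for each peak a fold (a ratio in which numerator and denominator each carry an added 1), the −log10 of its p-value and q-value, a score that is 10 times the −log10 q, and a summit. The numbers within the peak names do not match the sample numbers of the WT and DDX23-/- lists, so which library a list came from is uncertain. No total read count was used, and depth is known only relative to the WT list.

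The MACS2 formulas were solved for the fragments at the summit and the local background, to within 0.001, in 1468 of 1468, 2451 of 2451 and 5941 of 5945 peaks. The step was tried on values rebuilt from these solutions by the same formulas. That trial can show the effect of rounding only, and it does not check the formulas or the depth. Relative depth came from the lowest common background and the shortest peak (228, 211 and 196 bp). Enrichment is scaled fragments over background, with Poisson intervals. Shares have Clopper-Pearson intervals. Genes are those of GENCODE v44 on GRCh37, read with Python 3.11.15, pandas 2.3.3, scipy 1.17.1, pysam 0.24.0 and Biopython 1.88. Of the 26 other Sm-class and 9 type 3 symbols listed, 23 and 8 matched.

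The genes and gene lists were chosen with earlier results of these data known. Named are all 9 genes, DDX23 and POLK, protein-coding starts within 5000 bp, genes of lists with 5 or fewer genes with a peak, and some of the list genes with a peak in all 3 peak lists that have the 5 smallest p of their gene list. The listed Sm-class symbols that did not match are named as well. Alternatives were another distance, a q of 1e-05 or less, equal numbers of peaks, the deposited fold, centering, and stricter overlap. The Pol κ-Flag and control libraries were not analysed here, and the further pulldown library of each genotype had no separate list here.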

Additional observations from a re-analysis of the deposited data

How the results depend on the processing

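No paired analysis was possible because there is 1 list per genotype and no result comes from a test. For the same reason no replicate was left out. Of 210 alternative values for 62 results, 166 stayed within the counting interval of the reported value or within 1.5 times its count, 37 moved beyond it, and in 7 a ratio past the fold of 1.5 changed to the other side of 1. RNU5D-1 in the WT list and RNU5A-1 in the POLK-/- list lacked a peak under each alternative. Apart from 5000 bp, these alternatives can only remove peaks, so they could not have changed an absence. The nearest WT peak to RNU5D-1 was 8938 bp away. In the POLK-/- list the peak 4267 bp from RNU5A-1 was given to RNU5B-1, which is nearer. Without that rule 9 of 9 genes had a POLK-/- peak within 5000 bp. With 1468 peaks per list, RNU4-1 and RNU5D-1 also lost theirs in both knockout lists (6 and 7 genes with a peak).

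Of 23 ratios at single genes, 3 changed side of 1 with the deposited fold, 3 when divided by the median of all shared peaks and 10 with fragments over relative depth, chosen after seeing the data, which leaves out the local background by construction. Of 13 ratios past the fold, 4, 2 and 12 were then no longer past it in the same direction. Divided by that median, the medians of DDX23-/- to WT and to POLK-/- became 0.931 and 0.972. The 7 ratios past the fold that changed side did so with fragments over relative depth. POLK-/- over WT became 1.01 in RNU4-1 and 0.863 in RNU11. DDX23-/- over WT became 0.899 in RNU5A-1 and 0.616 in RNU11. DDX23-/- over POLK-/- became 0.675 in RNU4-1, 0.632 in RNU4-2 and 0.771 in RNU4ATAC. The median ratios of DDX23-/- to WT and to POLK-/- became 0.744 and 0.780. The share of protein-coding starts with a peak became 5.20%, 9.40% and 23.3% at 500 bp, 6.37%, 11.3% and 27.5% at 5000 bp, 4.25%, 8.32% and 22.2% at a q of 1e-05 or less, and 5.79% and 5.73% in the knockout lists with equal numbers of peaks.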
